A study of Mus musculus with 10 samples.

Results

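Arl4a, Arl4c and Arl4d are the 3 genes of the Arl4 group of small GTPases, taken from the deposited table by their symbols out of 14796 named genes. All 3 had a value in every one of the 10 samples, and none lay at the lowest value of the table in any sample. The members were chosen by name, and selected on the low log2 values of Arl4d in telencephalon with a null allele of Polr1a, so the null values of the members are given below as a description, without a test. Polr1a codes for a subunit of the catalytic core of RNA polymerase I, which makes most ribosomal RNA.

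RNA was sequenced from mouse telencephalon, the front part of the brain, from which cortex and basal ganglia arise, at embryonic day 12. The samples fall into 4 groups: Polr1a null (2 samples) and wild type (2 samples) with 1 title number, called the null set, and Polr1a missense, p.C1559F (3 samples), and wild type (3 samples) with another, called the missense set. The labels explain neither number and name no litter or separate animal per sample, so a p-value speaks only for the variation among these 10 samples, which may be technical. The labels used here do not state zygosity, strain or sex. Comparisons were made within a set.

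Arl4 proteins belong to the ARF family, small GTPases that switch between a GDP-bound and a GTP-bound form and are anchored to membranes by a myristoyl group. At the plasma membrane Arl4 proteins recruit cytohesins, exchange factors that activate Arf6 and so reshape the actin cytoskeleton and move membrane. A basic C-terminal tail also takes them into the nucleus, where they have been seen in nucleoli.

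The 250 bases before the start of each gene are shown because the values of Arl4d differ from those of the other two below, and they let the 3 upstream regions be compared. They are read 5′ to 3′ on the gene's strand from RefSeq on GRCm38.p6, a different build from the GRCm39 named in the labels. Capitals mark TGACGTCA, the palindromic cyclic AMP response element, and CCAAT or its reverse ATTGG.
Arl4d, chr11:101665291-101665540, plus strand: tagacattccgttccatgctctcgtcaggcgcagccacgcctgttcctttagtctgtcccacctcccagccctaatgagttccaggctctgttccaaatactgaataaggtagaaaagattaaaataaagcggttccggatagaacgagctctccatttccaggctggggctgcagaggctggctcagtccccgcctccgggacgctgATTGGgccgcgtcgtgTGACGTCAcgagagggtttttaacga
Arl4a, chr12:40037988-40038237, minus strand, first of 2 listed starts: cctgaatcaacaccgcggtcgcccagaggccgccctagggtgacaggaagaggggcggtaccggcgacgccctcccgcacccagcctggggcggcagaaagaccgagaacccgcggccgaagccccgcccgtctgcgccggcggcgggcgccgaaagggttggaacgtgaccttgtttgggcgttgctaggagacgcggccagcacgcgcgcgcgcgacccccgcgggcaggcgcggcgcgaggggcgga
Arl4c, chr1:88702192-88702441, minus strand: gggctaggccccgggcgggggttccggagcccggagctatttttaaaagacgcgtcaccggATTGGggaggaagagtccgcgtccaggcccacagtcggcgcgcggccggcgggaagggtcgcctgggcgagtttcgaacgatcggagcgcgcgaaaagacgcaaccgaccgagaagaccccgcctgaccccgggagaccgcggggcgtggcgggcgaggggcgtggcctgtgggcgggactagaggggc
TGACGTCA stands once in the Arl4d window, 26 to 19 bases before the start, and in neither of the other two. It was searched after the Arl4d window had been read, on both strands, and 1.55% of 32851 such windows in the table hold it. An ATTGG lies 42 to 38 bases before the Arl4d start, and CCAAT in either orientation was found in 33.8% of all windows. GGGCGG, the GC box, occurs 5 times in the Arl4a window and 2 times in the Arl4c window on both strands together, has no match in the Arl4d window, and is held by 32.7% of all windows. The homeobox core TAATTA, which overlaps none of these motifs, was in none of the 3 printed windows and in 4.84% of all. G and C made up 54.4% of the Arl4d window, 74.8% of the Arl4a window and 71.6% of the Arl4c window. The window of the second Arl4a start, not printed, holds CCAAT 2 times and GGGCGG 3 times, and neither TGACGTCA nor TAATTA, so the comparison of the genes depends on the start taken. These matches describe letters, and no binding was measured.

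Arl4d, which in mammalian cells brings cytohesin-2 to the plasma membrane, was the member with the widest range, from a log2 level of 1.45 to 3.99 over the 10 samples. On the per-million scale its level was 3.28 in null 1 and 2.72 in null 2, against 15.0 and 13.2 in the null-set wild types. On the log2 scale these are 1.71 and 1.45 in the null samples, against 3.91 and 3.73 in the null-set wild types. Both null samples lay far below both wild types, with a gap of 2.01 between the groups. The mean log2 level was 1.58 ± 0.19 (SD, n = 2) in null and 3.82 ± 0.13 (SD, n = 2) in null-set wild type, a difference of -2.24 (SE 0.23), or 21.2% of the wild-type level. Ordered from the lowest, this log2 difference was number 48 of the 14796 genes.

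No call is given for the members in the null comparison, which chose them. Of all genes, limma called 0.128% lower and 0.0338% higher in null, and 14.8% had both null samples below both null-set wild types.

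The missense comparison was not used to choose the genes, and it asks whether the Arl4 genes differ in telencephalon with the C1559F allele. Arl4d had log2 levels of 3.29, 3.29 and 3.10 in missense 1, 2 and 3, against 3.67, 3.99 and 3.97 in the missense-set wild types. On the per-million scale that is 9.79, 9.77 and 8.58 in the missense samples, against 12.8, 15.9 and 15.6 in the wild types. Every missense sample lay below every wild type of the set, with a gap of 0.38, as in 4.89% of all genes. Arl4d was 1 of 204 genes (1.38% of all) that lay lower without overlap in each of the mutants, from which nothing is read, since its null value chose it. The mean was 3.23 ± 0.11 (SD, n = 3) in missense and 3.88 ± 0.18 (SD, n = 3) in wild type, a log2 difference of -0.65 (SE 0.19), or 0.638-fold. The 95% interval of the difference ran from -1.07 to -0.23, an unadjusted interval for a single gene. The difference did not pass over all genes in limma (unadjusted p = 0.00607, adjusted p = 0.884), where 0 of the 3 members were called and 0.0203% of all genes were, 0.0135% higher and 0.00676% lower. It was number 90 of the 14796 genes by p. With no gene called among the members, the number whose unadjusted p was under 0.05 was 1, Arl4d, as in 5.54% of all genes.

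Ordered by mean log2 level, Arl4d was highest in the missense-set wild types (3.88), then in the null-set wild types (3.82), in missense (3.23) and in null (1.58). The wild types of the sets overlapped, while missense lay apart from both neighbours in this order. Whether null and missense differ in Arl4d was not tested, because the gene was chosen for its null value.

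**Figure D1:**
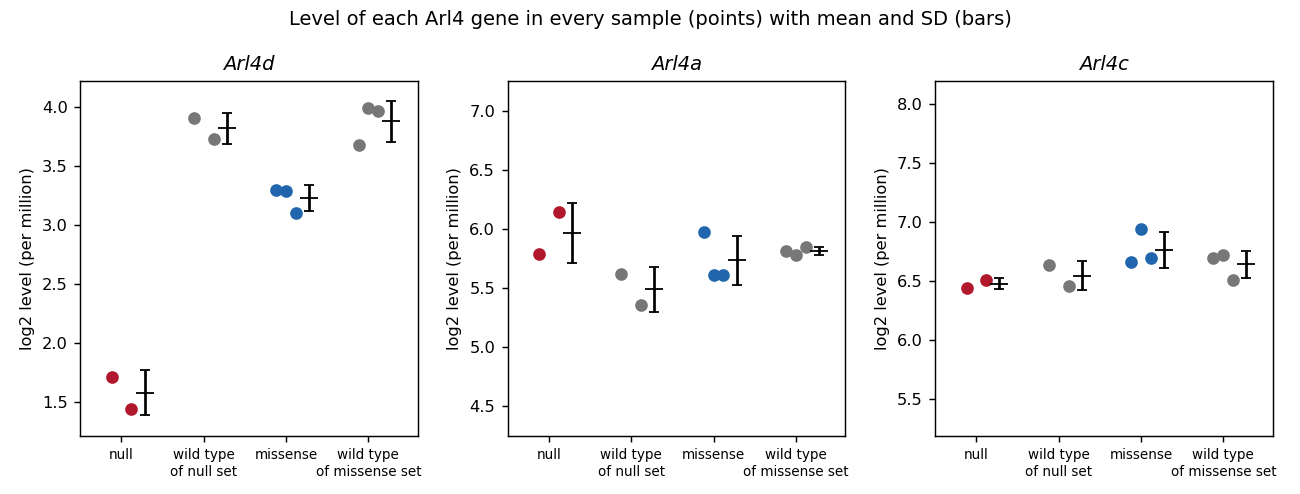
Log2 level on the per-million scale (vertical axis, 3 log2 units in each panel) of Arl4d, Arl4a and Arl4c in every sample (points), by group, with the mean and SD beside them (bars). Arl4d lies lowest in null, between 1.45 and 1.71, and between 3.10 and 3.29 in missense, while Arl4a and Arl4c spread over less than 1 unit in all 10 samples.

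Arl4a, whose human protein binds the Rac activator ELMO1 and the golgin GCC1 as well as cytohesins, was the member that lay higher in null. Its log2 levels were 5.79 and 6.15 in null 1 and 2, against 5.62 and 5.36 in the null-set wild types. The null samples did not overlap these wild types, at a gap of 0.17, and 22.9% of all genes lay higher in null without overlap. The mean was 5.97 ± 0.25 (SD, n = 2) in null and 5.49 ± 0.19 (SD, n = 2) in wild type, a difference of 0.48 (SE 0.17). It was 0.30 without null 2, 0.66 without null 1 and 0.28 against the wild types of the 2 sets together. The wild types of the other set, at 5.81, 5.78 and 5.85, lay inside the range of the null samples or just below it, and above both null-set wild types, by 0.33 in the mean.

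In the missense samples Arl4a stood at 5.98, 5.61 and 5.61, against 5.81, 5.78 and 5.85 in the missense-set wild types. The groups overlapped, since missense 1 lay above and missense 2 and 3 below all 3 wild types. The difference of -0.08 (SE 0.14) did not pass in limma (adjusted p = 0.96), and its 95% interval ran from -0.38 to 0.22. It was -0.20 without missense 1, and -0.02 without missense 2 or without missense 3. In order of mean level, the groups ran null, missense-set wild type, missense and null-set wild type, and each overlapped the next.

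Arl4c, which in cultured cells acts on cytohesins, filamin A and cell shape, varied least of the 3, over 0.49 log2 units in the 10 samples. It had 6.45 and 6.51 in null 1 and 2, against 6.63 and 6.46 in the null-set wild types, a difference of -0.07 (SE 0.13). These groups overlapped, and 0.02 was the difference without null-set wild type 1. Missense 1, 2 and 3 had 6.66, 6.94 and 6.69, against 6.70, 6.72 and 6.51 in the missense-set wild types. The missense difference was 0.12 (SE 0.10), with groups that overlapped, where 6.02% of all genes lay higher in missense without overlap, a 95% interval from -0.11 to 0.35 and no pass in limma (adjusted p = 0.929). Without missense 2, the highest sample, it was 0.03, and without missense-set wild type 3 it was 0.06. Over the 4 groups Arl4c ran missense, missense-set wild type, null-set wild type and null, each overlapping the next.

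After subtraction of the wild-type mean of each sample's own set, Pearson's r over the 10 samples was -0.72 between Arl4a and Arl4d, -0.41 between Arl4a and Arl4c and 0.22 between Arl4c and Arl4d. These are descriptions over samples that share their wild-type baseline, and Arl4d was lowest in the 2 null samples.

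Polr1a itself had log2 levels of 4.99 and 4.82 in null 1 and 2, against 5.38 in each null-set wild type (difference -0.48, SE 0.20, limma adjusted p = 0.563). In missense it had 5.09, 5.66 and 5.79, against 5.62, 5.51 and 5.64 in the missense-set wild types (difference -0.08, SE 0.16, limma adjusted p = 0.964). Missense 1, which was lowest in Polr1a, was highest of the missense samples in Arl4a and differed little from missense 2 in Arl4d. All 7 telencephalon markers on the list had values, and their summed level was 880 to 1078 per-million units in null, against 1303 to 1442 in null-set wild type, and 1004 to 1147 in missense, against 1251 to 1378 in missense-set wild type. Pairs of samples correlated at 0.938 to 0.964 over all genes.

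Markers of the ventral telencephalon, where GABAergic neurons are born, were low in the same samples as Arl4d. All 24 markers on the list had values, the lowest at -0.45 against a floor of -3.16. In null, 11 of the 24 passed in limma as lower and 0 as higher, where 0.128% of all genes were called lower and 0.0338% higher. Of the 24, 21 had negative and 3 positive differences in null, the highest being Gbx2 at 0.82, where 45.3% of all genes had negative ones. The median log2 difference of the 24 markers in null was -0.88, where that of all genes was 0.03. Their summed level was 861 to 907 per-million units in null, against 1635 to 1821 in null-set wild type. In null, Dlx1, a homeobox gene of the GABAergic lineage, had a log2 difference of -1.38 and fell (SE 0.10, limma adjusted p = 0.000369). Dlx2, a partner of Dlx1 in the same lineage, had -1.68 and also fell (SE 0.20, limma adjusted p = 0.0128). The count of 11 was 0 with the null set fitted on its own (17 lower by unadjusted p under 0.05), 1 without the variance trend, and 1 to 9 with each sample left out. It was 1 without null-set wild type 2, 2 without null 2, 4 without missense-set wild type 1 or 3, 5 without null-set wild type 1, 6 without null 1 or missense 2, and 7 without missense 1 or 3. In missense 0 of the 24 passed in limma. At an unadjusted p under 0.05, 6 were lower and 0 higher, where 5.54% of all genes had such a p in either direction. Of the 24, 20 had negative differences, as did 46.0% of all genes, and the median was -0.25. The summed level was 1255 to 1353 per-million units in missense, against 1458 to 1622 in missense-set wild type, so these groups did not overlap either.

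Set beside this list, the null difference of Arl4d was lower than that of 21 of the 24 markers, the other 3 being Lhx6, Lhx8 and Gbx1. Arl4d was chosen for a low null value, which favours such a place, so nothing is read from it or from the null values that follow. In missense 0 of the 24 markers had a lower log2 difference than Arl4d, the nearest being Dlx2 at -0.52. The log2 level of Arl4d minus the mean log2 level of the 24 markers in the same sample was -2.90 and -3.03 in null 1 and 2, against -1.60 and -1.88 in the null-set wild types. It was -1.88, -2.04 and -2.09 in the missense samples, against -1.75, -1.56 and -1.38 in the missense-set wild types. All 3 missense samples lay below the missense-set wild types on this difference, which was not tested. The mean of the 24 includes 4 markers that were higher in missense, so a marker that fell more than this mean could lie lower on it too. The share of genes that do so was not counted. In such bulk samples fewer cells of a type and less RNA per cell cannot be told apart, and the part of the ventral markers in the Arl4d values was not tested.

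**Figure D2:**
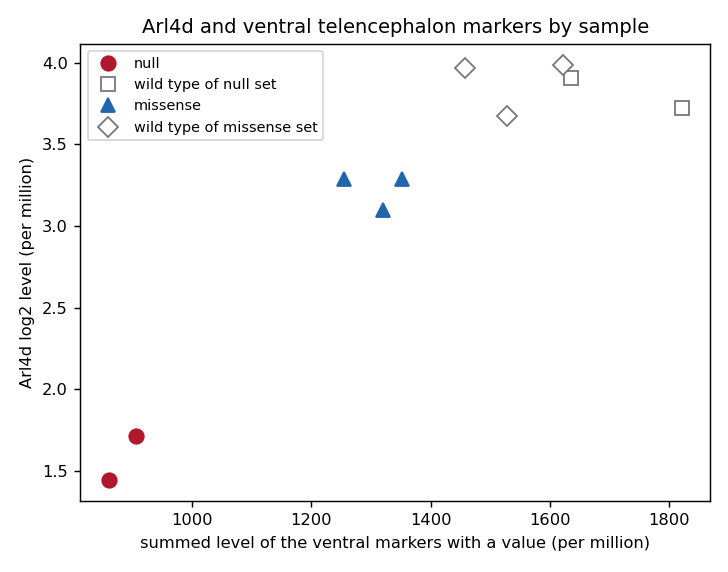
Log2 level of Arl4d (vertical axis) against the summed level of the 24 ventral telencephalon markers, both on the per-million scale (horizontal axis), 1 point per sample, with shape and colour by group. The null samples lie at the lower left, with sums of 861 and 907, the missense samples between 1255 and 1353, and the wild types of both sets at 1458 and above.

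Summed microglia and macrophage markers (11 of 12 with a value) were at 130 to 132 per-million units in null, against 60.7 to 68.1 in null-set wild type, and at 103 to 122 in missense, against 76.3 to 95.3 in missense-set wild type. Cortical hem markers (14 of 14) were at 659 to 802 per-million units in null, against 424 to 459, and at 550 to 608 in missense, against 492 to 509. Diencephalon and midbrain markers (16 of 17) were at 772 to 866 in null, against 422 to 468, and at 417 to 668 in missense, against 416 to 664. Mesenchyme and meninges markers (12 of 12) were at 2725 to 3682 in null, against 1868 to 2205, and at 2507 to 3392 in missense, against 1977 to 3248. Of these 4 lists, 1 gene passed in limma in null, Wnt8b, a Wnt ligand of the hem (log2 difference 1.08, SE 0.14, adjusted p = 0.022), and 0 in missense. By unadjusted p, 34 of their 53 genes with values were under 0.05 in null (8.32% of all genes) and 11 in missense (5.54% of all genes), each of them higher. The part of these lists in the Arl4 values was not tested.

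The pan-neuronal markers (10 of 10) were at 3097 to 3443 per-million units in null, against 3681 to 4142 in null-set wild type, and at 3696 to 4353 in missense, against 4355 to 4470 in missense-set wild type. Progenitor markers (8 of 8) were at 3659 to 3727 in null, against 3891 to 4218, and at 3470 to 4002 in missense, against 3548 to 3991. The sums of cortical, endothelial and erythroid markers overlapped between missense and wild type, and the cortical and erythroid sums also between null and wild type. Single cortical markers were lower all the same. In missense 10 of the 12 were lower, with a median of -0.18, and 4 of them had an unadjusted limma p under 0.05. In null 6 were lower and 6 higher, and 3 of the lower ones had such a p. None of the 12 passed in limma in either mutant. Endothelial markers were at 350 to 457 in null, against 327 to 329 in null-set wild type.

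The genes most like each member in pattern were found by Pearson's r over the 10 samples, each taken relative to the wild-type mean of its set, among 10690 genes. For Arl4d they included Dlx1 (r = 0.97), Shb (0.97), Fam65b (0.96), Dlx5 (0.96) and Dlx2 (0.96). Dlx1, Dlx2 and Dlx5 are homeobox genes of the ventral telencephalon, and Shb encodes an adapter of receptor tyrosine kinases. In these 5 genes, as in Arl4d, the null samples had the lowest values relative to their wild types, and the r values are a description. Dlx1 stood at 6.62 and 6.81 in null 1 and 2, against 8.04 and 8.16 in the null-set wild types, and at 7.66, 7.67 and 7.77 in missense, against 7.99 to 8.07 in the 3 missense-set wild types. The order of its 4 groups was close to that of Arl4d, lowest in null and next in missense.

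Within the ventral list, r with Arl4d was above 0.9 for 11 of 24 genes and below 0 for 3. It was 0.95 for Gad2, an enzyme of GABA synthesis, 0.92 for Lhx6 and 0.88 for Nkx2-1, which specifies the medial ganglionic eminence. It was 0.11 for Gsx1 and -0.34 for Ebf1, a gene of striatal neurons. All 24 r values share the same 10 samples, among them the null samples whose low Arl4d values chose the gene. A gene that is low in null thus tends to a high r, and nothing is read from these counts. The share of all genes with such an r was not counted.

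For Arl4a the most alike genes were Rpl15 (r = 0.93), a gene of the large ribosomal subunit, Bmp5 (0.93), a secreted ligand of the dorsal midline, and Nkx2-2 (0.93), a homeobox gene of the ventral neural tube. Rpl15 stood at 9.27 and 9.48 in null 1 and 2, against 8.70 and 8.56 in the null-set wild types, and like Arl4a its null samples lay near the 9.37 to 9.38 of the missense-set wild types. For Arl4c they were Taok2 (0.94), Alg9 (0.92) and Btbd17 (0.92). In each of these 3 genes, as in Arl4c, missense 2 was the highest sample relative to its wild types.

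**Figure D3:**
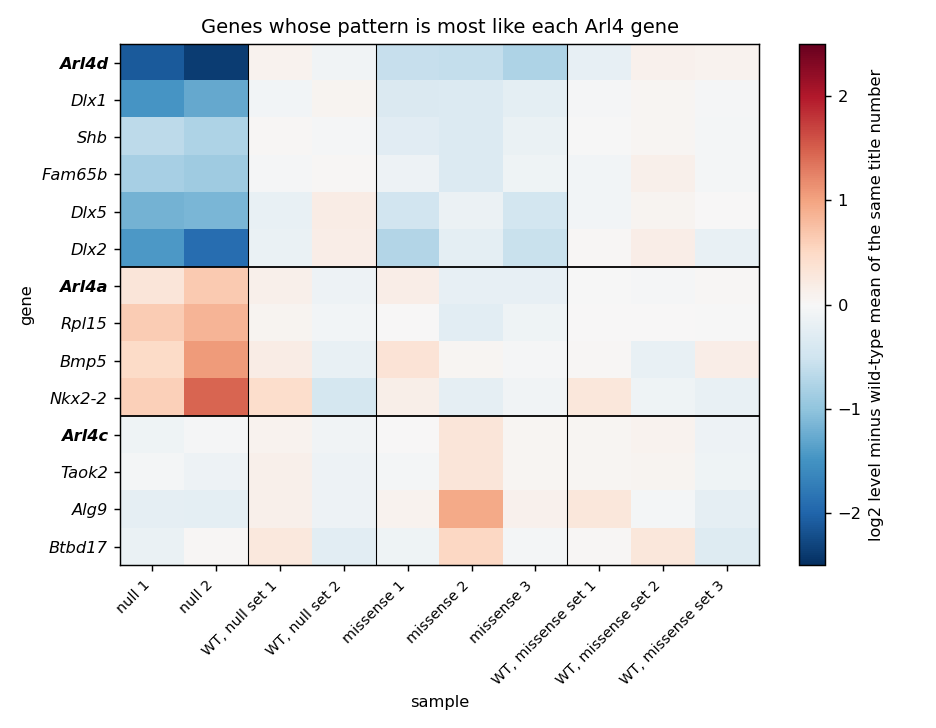
Log2 level minus the wild-type mean of the same set (colour, blue low and red high) for the 3 Arl4 genes (bold) and genes most like each, by sample. The rows of Arl4d and its 5 companions are blue in the null samples and paler blue in the missense samples, while Arl4c is near white except in missense 2.

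The genes next to each member on its chromosome were read in RefSeq order, without coordinates because the builds differ. Arl4d on chromosome 11 has Rdm1 and Tmem106a on one side and Dhx8 and Etv4 on the other among the genes with values. Their null differences were -0.31 (SE 0.24), 1.15 (SE 0.62), 0.04 (SE 0.11) and 0.50 (SE 0.49), and 0 of these 4 genes passed in limma in either mutant (smallest unadjusted p in null 0.0928). The missense differences of the same genes were -0.23, 0.89, 0.03 and 0.21. Beside Arl4a on chromosome 12, Etv1 had -0.59 (SE 0.29) and Scin 0.03 (SE 0.62) in null, and beside Arl4c on chromosome 1, Hjurp had -0.17 (SE 0.18) and Sh3bp4 0.12 (SE 0.15). None of the 12 neighbours passed in limma in either comparison, and 0.0635 was the smallest unadjusted p among them in null.

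The proteins around Arl4 were described with lists of related genes. Over all 8 lists, 105 of 108 genes had values, and 0 passed in limma in null, where 0.162% of all genes were called. By unadjusted p, 14 were under 0.05 in null (12 higher, 2 lower), where 8.32% of all genes were. Most of the 14 came from the signalling lists: 6 Wnt targets, 3 liver X receptor genes and 1 Ras-MAPK gene. The ARF and ARL, partner, exchange factor and GTPase-activating lists gave 1 each, and N-myristoylation 0. In missense also 0 passed, and by unadjusted p 10 were under 0.05 (8 higher, 2 lower), where 5.54% of all genes were. The median log2 difference was 0.04 in null and 0.05 in missense, where the medians of all genes were 0.03 and 0.02.

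The other ARF and ARL GTPases, 23 of 26 with values, lay close to wild type, with medians of -0.04 in null and -0.01 in missense. Arl10, the lowest of them in null, had -0.40 (SE 0.17, limma adjusted p = 0.56), and Arf6, the GTPase downstream of the Arl4 proteins, had -0.11 (SE 0.14) in null and -0.01 (SE 0.11) in missense. Arl5a had 0.20 in missense (SE 0.08, limma adjusted p = 0.884). In this list 1 gene in null, Arl10, and 2 in missense, Arl5a and Arl5c, had an unadjusted p under 0.05.

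Of the 16 partners of Arl4 proteins, all with values, 9 were higher and 7 lower in each mutant, with medians of 0.06 in null and 0.05 in missense. Iqgap1, a scaffold of the actin cortex, had a log2 difference of 0.43 in null (SE 0.12, limma adjusted p = 0.308). Rac1, the GTPase of lamellipodia, had 0.24 in null (SE 0.11) and 0.17 in missense (SE 0.09). Cyth1, a cytohesin, stood at 5.10, 4.78 and 5.05 in missense 1, 2 and 3, against 5.83, 5.14 and 6.09 in the missense-set wild types. Its missense difference of -0.71 (SE 0.25) did not pass in limma (adjusted p = 0.884). The groups did not overlap, and 4.89% of all genes lay lower in missense without overlap. Cyth2, whose product Arl4d recruits, had -0.12 (SE 0.41) in null and -0.58 (SE 0.34) in missense, neither of which passed.

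The exchange factors of ARF proteins (11 of 11) had medians of 0.04 in null and 0.05 in missense, with Arfgef1 at 0.29 in null (SE 0.12) and Psd3, which acts on Arf6, at 0.30 in missense (SE 0.13). The GTPase-activating proteins (21 of 21) had medians of -0.02 in null and -0.00056 in missense, with Smap1 at 0.31 in null (SE 0.13). Arap3 in that list varied within groups, at -2.49, 4.43 and -3.16 in missense 1, 2 and 3, against 2.91, 4.30 and 4.10 in the missense-set wild types. Its missense difference of -4.18 (SE 1.58) missed the threshold in limma (adjusted p = 0.884) and passed without missense 2 (-6.60, adjusted p = 0.0156). Missense 3 lay at the floor of the values and missense 1 near it, while missense 2 lay above all 3 wild types. The size of both differences thus rests on values at or near the floor. The 4 enzymes of N-myristoylation, Nmt1, Nmt2, Metap1 and Metap2, ranged from -0.14 to 0.19 in null and from -0.13 to 0.13 in missense.

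Lists of 3 signalling pathways were also described. All 11 Wnt targets lay higher in null and in missense, as did 54.6% and 54.0% of all genes, with medians of 0.53 and 0.23, and 0 passed in limma. By unadjusted p, 6 were under 0.05 in null (8.32% of all genes) and 3 in missense (5.54% of all genes). The cortical hem markers given above, several of them Wnt ligands, had higher sums in the same mutants, and their part in these values was not tested. Tnfrsf19, a Wnt-induced receptor, had 0.53 in null (SE 0.09, limma adjusted p = 0.0665), and Rnf43, a ubiquitin ligase that limits Wnt signalling, had 2.62 in missense (SE 0.43, limma adjusted p = 0.249). The liver X receptors (LXR) and their targets (10 of 10) had medians of 0.22 in each mutant, with Apoe, a lipid carrier, at 0.74 in null (SE 0.28) and Mylip at 0.58 in null (SE 0.26) and 0.53 in missense (SE 0.21). In this list 3 genes in null and 1 in missense, all higher, had an unadjusted p under 0.05 and 0 passed in limma. Ras-MAPK feedback genes (10 of 10) had medians of -0.04 in null and 0.11 in missense, with Dusp4 at -0.48 in null (SE 0.14) and Dusp6 at 0.45 in missense (SE 0.13). Apoe is also made by macrophages, whose summed markers were higher in null, as given above, and their part in its value was not tested.

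**Figure D4:**
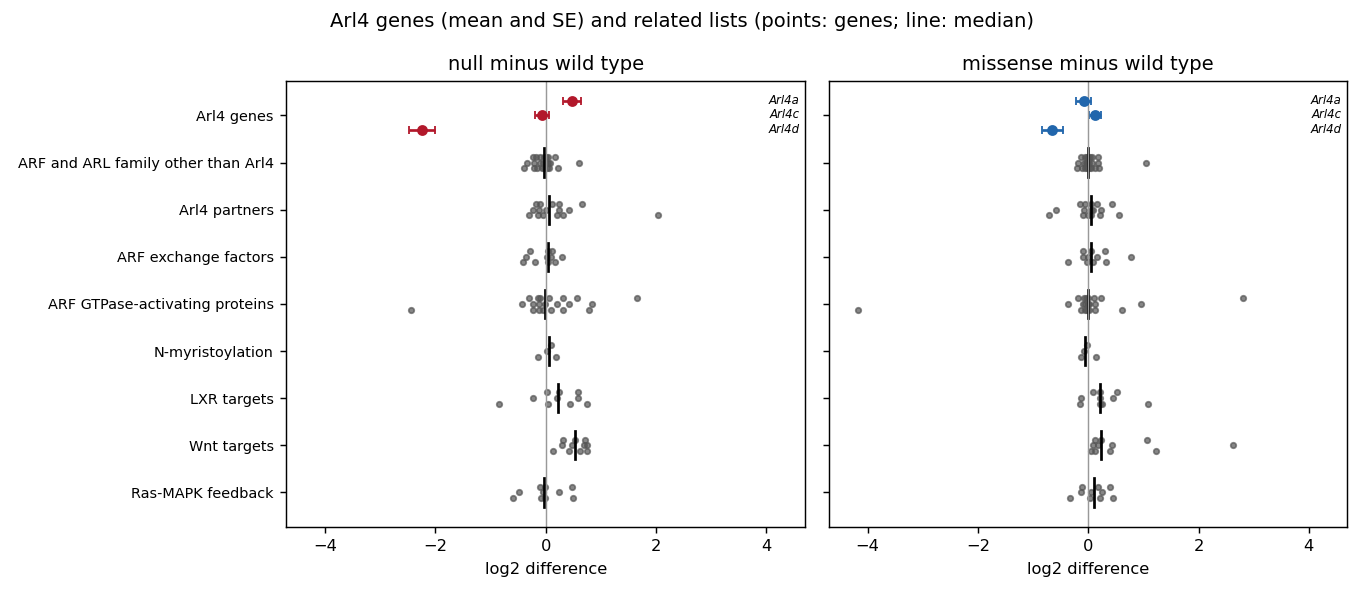
Log2 difference (horizontal axis) of the 3 Arl4 genes, as estimate and SE, and of the genes of 8 related lists (grey points, with the list median as a line), for null minus wild type (left) and missense minus wild type (right). Arl4d is the member farthest from 0 on each side, at -2.24 and -0.65, and the list medians lie between -0.05 and 0.53.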

How the data were processed

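The deposited values, 1 per gene and sample, are on a log2 scale, filtered and normalized by the authors as the name of the table states. The unit was read from the values: back-transformed, they sum to between 1000571 and 1000994 in each sample, as on a per-million scale with a small offset. Near the common floor of -3.16 they show no regular steps of single reads. Counts could thus not be rebuilt, the depth is unknown and no counting interval is given. The submitters' processing notes name the genome build GRCm39. Aligner, counter, annotation and strand setting: not given in the sources used here.

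A linear model with 4 groups (genotype and first title number) was fitted in R 4.3.3 (limma 3.58.1) to the 14796 named genes, 1 unnamed gene being left out, with variances moderated along a trend on the level, 6 residual and 4.83 prior degrees of freedom, 2-sided tests and Benjamini-Hochberg adjustment over all genes. A gene was called at an adjusted p under 0.05. The fit was tested on simulated data, with changes planted in the missense samples alone and larger than the missense difference of Arl4d. That simulation does not speak for the null comparison or for a difference as small as that of Arl4d. The Arl4 genes and all gene lists were chosen with earlier results of these data known. Named genes are the members, Polr1a, up to 3 genes of smallest p per related list and mutant and per marker list in null, the nearest 2 genes on each side of a member in RefSeq order, and the 6 (Arl4d) or 3 (Arl4a, Arl4c) genes of highest Pearson correlation with a member, leaving out predicted models, pseudogenes and the lowest 25% of genes by mean level. Not every gene these rules give is described, some are not reported here, and Lhx8, Gbx1, Gsx1, Ebf1, Cyth2 and Arf6 were named after their values were seen. Promoter windows came from RefSeq on GRCm38.p6, matched by symbol. Tables were handled with pandas 2.3.3 and data.table (version 1.17.8), and figures were drawn with matplotlib 3.10.9 in Python 3.11.15. Alternatives covered the scaling, the filter, the offset, the variance model, the title-number term, each title number alone and each sample left out. The recount of the ventral marker calls under these alternatives was chosen after seeing the data.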

Additional observations from a re-analysis of the deposited data

Results flagged for a closer look

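Arl4c was picked out because both null samples lay below the mean of their wild types and all 3 missense samples above the mean of theirs. The null difference minus the missense difference was -0.19 on the log2 scale. This difference was not tested, and in each comparison the mutant and wild-type samples overlapped.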

How the results depend on the processing

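The missense difference of Arl4d was negative and uncalled in all 19 alternative fits (-0.75 to -0.59, limma adjusted p of 0.494 to 1.0), and its null difference stayed negative (-2.37 to -1.92). With 1 added on the linear scale the null difference of Arl4d was -1.92, and with each sample left out it was -2.37 to -2.10. The missense difference of Arl4a was 0.050 without the title-number term and -0.20 to -0.02 with each sample left out. In null, Arl4a was 0.28 without the title-number term and 0.30 to 0.66 with each sample left out. The count of genes called in limma in null was 6 without the variance trend, 59 without the title-number term, 0 in the null set on its own (1101 genes by unadjusted p under 0.05), and 2 to 23 with each sample left out: 2 without null 2, 7 and 12 without wild type 2 and wild type 1 of the null set, 8 and 12 without wild type 1 and wild type 3 of the missense set, and 14 without missense 2. In missense it was 2 to 10 with each sample left out, 10 without wild type 2 of the missense set and 6 without either null sample, and the related lists gave 0 to 1 (Arap3, without missense 2). The cause was not tested. No paired analysis was possible because replicate numbers were given in accession order and the titles share no number between the groups compared. A group cut to 1 sample borrowed its spread from the remaining groups. Small differences of Arl4a and Arl4c are limited by groups of 2 and 3 samples.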
